A study of Mus musculus with 6 samples.

Results

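The neutrophil granule and calgranulin genes are 10 mouse genes, Lcn2, S100a8, S100a9, Stfa2l1, Ngp, Camp, Ltf, Mpo, Elane and Mmp8, out of 22180 genes that had a probe row naming only them. Each of the 10 had exactly 1 such row, so no choice between rows was needed. They were chosen from these data: Lcn2, S100a8 and Stfa2l1 were among the genes that stood highest on saline array 1, and the other 7 joined them as genes of the same cell type. Total RNA from tissue labelled as whole hippocampus of male C57BL/6J mice, an inbred strain, was hybridized to 6 Affymetrix whole-transcript arrays, each holding RNA pooled from 3 mice. The 3 ethanol arrays came from mice given subcutaneous ethanol, 2.5 g/kg dissolved in 0.15 M NaCl, and the 3 saline arrays, titled Control in the labels, from saline-injected littermates. Both groups were injected at postnatal days 4 and 7, each time with 2 doses separated by 2 hours. The sample characteristics give an age of 21 days, whereas the treatment protocol gives postnatal day 70. Injected ethanol in newborn mice is a model of exposure in late pregnancy, with no maternal metabolism of the drug, and the comparison asks what remains of it in expression later in life.

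Neutrophils are short-lived white blood cells that leave the bone marrow with their granules already filled. Primary granules, made first, hold myeloperoxidase and serine proteases such as neutrophil elastase. Secondary and tertiary granules, made later, hold iron-binding and antimicrobial proteins and metalloproteinases. The calgranulins S100a8 and S100a9 lie in the cytosol, where they pair to form calprotectin. Most granule genes are transcribed in the bone marrow and are largely shut off in circulating neutrophils, whereas S100a8 and S100a9 transcripts stay abundant in them. Healthy brain tissue holds few neutrophils. Lcn2 is also made by astrocytes and by vessel cells during inflammation.

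All values are log2 levels as the authors deposited them, so that a difference of 1 is 2-fold. Median levels of the arrays lay between 6.55 and 6.66. On the first principal component of all rows, saline array 1 scored -19.89, next to ethanol arrays 1 and 2 at -15.68 and -19.12, ethanol array 3 scored -1.59, and saline arrays 2 and 3 scored 32.61 and 23.67. Results that rest on saline array 1 are therefore given with and without it. The labelled tissue was checked on markers: the median level was between 7.04 and 7.28 on every array for 16 hippocampal neuron genes and between 10.61 and 10.80 for 12 cerebellar neuron genes. The high signal of the cerebellar markers leaves the tissue label in doubt, and the tissue is called by its label here only because no other is given. Binding strength varies from probe to probe, so these levels do not rank transcripts between genes, and these medians do not settle which tissue it was. No marker row can be read as absent.

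The data bear on the control regions of these genes only in that some members stood high together on 1 array. The 250 bases before the annotated start are shown for the 4 members that stood highest there and for S100a9, the neighbour of S100a8 that did not. They are RefSeq sequences of mouse build GRCm38.p6, written 5′ to 3′ on the strand of the gene. Capitals mark matches to TTNNGNAA, read on both strands, a short form of the site bound by the C/EBP factors that drive granule genes.
Lcn2, chr2:32387740-32387989, minus strand: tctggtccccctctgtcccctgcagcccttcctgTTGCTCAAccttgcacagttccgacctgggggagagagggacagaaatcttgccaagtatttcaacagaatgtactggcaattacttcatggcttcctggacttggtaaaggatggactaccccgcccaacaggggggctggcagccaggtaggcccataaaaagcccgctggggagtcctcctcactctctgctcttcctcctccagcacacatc
S100a8, chr3:90668821-90669070, plus strand: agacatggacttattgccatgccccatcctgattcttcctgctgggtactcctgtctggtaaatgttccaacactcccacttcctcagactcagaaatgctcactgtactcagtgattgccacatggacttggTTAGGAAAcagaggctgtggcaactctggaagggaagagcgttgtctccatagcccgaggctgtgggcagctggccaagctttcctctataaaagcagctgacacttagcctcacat
S100a9, chr3:90695722-90695971, minus strand: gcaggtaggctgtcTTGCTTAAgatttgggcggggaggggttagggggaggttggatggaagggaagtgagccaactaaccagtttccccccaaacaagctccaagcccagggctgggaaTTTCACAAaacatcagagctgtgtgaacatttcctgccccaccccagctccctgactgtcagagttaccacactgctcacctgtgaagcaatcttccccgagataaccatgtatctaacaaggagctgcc
Stfa2l1, chr16:36156561-36156810, plus strand: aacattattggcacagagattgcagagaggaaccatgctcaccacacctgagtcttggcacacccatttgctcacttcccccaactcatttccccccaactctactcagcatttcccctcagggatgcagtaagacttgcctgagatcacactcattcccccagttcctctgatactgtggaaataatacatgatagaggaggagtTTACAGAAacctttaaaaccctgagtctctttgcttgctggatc
Ngp, chr9:110419558-110419807, plus strand: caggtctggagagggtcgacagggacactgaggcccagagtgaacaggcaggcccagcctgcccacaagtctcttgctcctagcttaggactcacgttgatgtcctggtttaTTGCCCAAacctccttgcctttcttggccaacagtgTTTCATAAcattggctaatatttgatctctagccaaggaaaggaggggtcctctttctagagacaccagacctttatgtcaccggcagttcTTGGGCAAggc

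The TTNNGNAA match began 216 bases before the start in Lcn2, 117 in S100a8 and 44 in Stfa2l1. S100a9 had 2 matches, at 236 and 130 bases, and Ngp had 3, at 138, 102 and 11 bases. Of the 10 members, 7 had at least 1 match, and the other two were Ltf and Mmp8. Over all 32851 promoters of this length in the RefSeq table, 36.8% had one. The core of sites for ETS factors such as PU.1, AGGAAG, was in 7 of 10 members, against 29.5% of promoters. The TATA box letters TATAAA were in S100a8 only, 30 bases before the start, against 12.4% of promoters. A loose outline of the NF-kB site, GGG and CC with 5 bases of any kind between them, was in 3 of 10 members, Lcn2, Ltf and Mpo, against 45.8% of promoters. The TTNNGNAA match was thus present both in the 4 promoters of the genes that stood highest on saline array 1 and in S100a9, Ltf and Mmp8, whose departures were 0.27 or less. These patterns were kept with the promoters in view, after other patterns were also tried. They are matches of letters, not sites shown to be bound.

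Lcn2 encodes lipocalin 2, a secreted protein that withholds iron from bacteria by binding their siderophores. Its gene lies on chromosome 2 from 32384637 to 32387739. It stood at 6.88, 6.76 and 6.77 on ethanol arrays 1 to 3, and at 8.0, 6.86 and 6.84 on saline arrays 1 to 3. Saline array 1 was alone above all others, and the other 5 arrays lay within 0.12 of each other. Saline array 1 exceeded the mean of the other 5 by 1.18, or 2.27-fold. This was the third highest such departure among the 22180 genes, and it is the value the gene was chosen on.

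S100a8 is the smaller calgranulin, a calcium-binding protein of the neutrophil cytosol. It stood at 5.51, 5.38 and 5.23 on the ethanol arrays and at 6.27, 4.88 and 5.21 on the saline arrays. The highest and the lowest arrays were both saline, with the ethanol arrays between saline array 1 and the pair of other saline arrays. Saline array 1 exceeded the other 5 by 1.03, or 2.04-fold, the fifth highest departure of all genes.

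S100a9, the partner of S100a8 in calprotectin, lies 22.6 kilobases away on chromosome 3, with no other measured gene between them. It stood at 6.52, 6.58 and 6.89 on the ethanol arrays and at 7.01, 6.74 and 6.94 on the saline arrays. Saline array 1 was again the highest, but only 0.07 above saline array 3, and it exceeded the mean of the other 5 by 0.27, at rank 973 among all genes. On the other 5 arrays the partners ranked the samples differently. S100a8 was lowest on saline array 2, and S100a9 was lowest on ethanol array 1.

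Stfa2l1 encodes a stefin A-like protein, of a family of inhibitors of cysteine proteases. It lies in the stefin A cluster on chromosome 16, from 36156811 to 36161948. It stood at 4.03, 3.93 and 4.20 on the ethanol arrays and at 4.96, 3.97 and 3.45 on the saline arrays. Saline array 1 was the highest and saline array 3 the lowest, and saline array 1 exceeded the other 5 by 1.04, or 2.06-fold, the fourth highest departure. Its mean signal was at percentile 12.4 of all rows, the dimmest of the 10. Genes of the cluster are close copies of each other, so a probe can bind the transcripts of several and this value is uncertain. The percentile places the signal and not the amount of transcript.

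Ngp encodes neutrophilic granule protein, a cathelicidin-related protein of secondary granules. It stood at 5.66, 5.64 and 5.51 on the ethanol arrays and at 6.15, 5.59 and 5.60 on the saline arrays. Like Lcn2 it was tight on 5 arrays, within 0.15, and alone on saline array 1, by 0.55 above the mean of the others, or 1.47-fold. It ranked 60 among all genes and was not one of the 3 genes that prompted the choice.

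**Figure D1:**
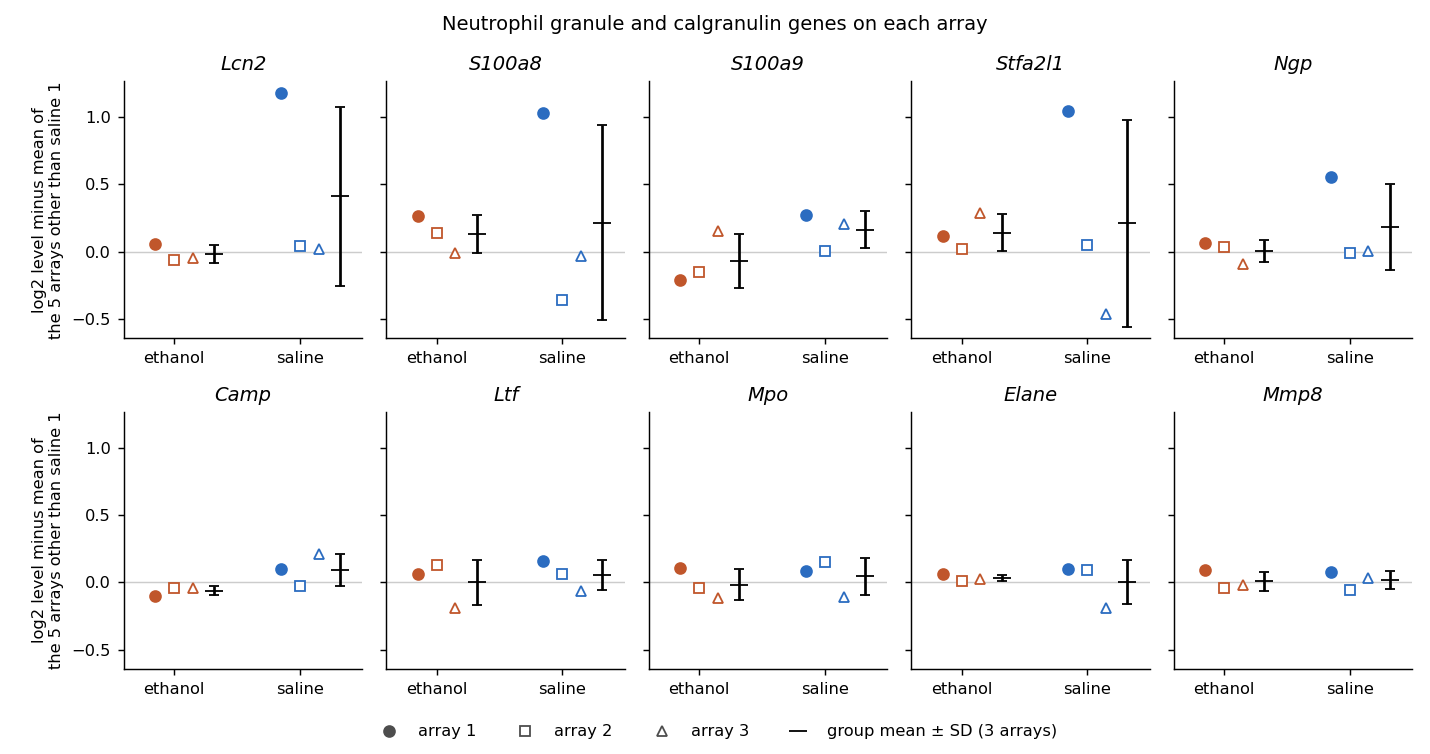
Log2 level of each of the 10 genes on each array, as the difference from the mean of the 5 arrays other than saline array 1, with ethanol at the left and saline at the right of each panel; black bars are the group mean ± SD over 3 arrays. Lcn2, S100a8, Stfa2l1 and Ngp stand 0.55 to 1.18 above that mean on saline array 1, and the other 6 genes stand 0.27 or less above it.

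The other secondary and tertiary granule genes showed little of this. Camp encodes the cathelicidin antimicrobial peptide and lies 570.4 kilobases before Ngp on chromosome 9. It stood at 4.79, 4.85 and 4.84 on the ethanol arrays and at 4.98, 4.86 and 5.10 on the saline arrays, with saline array 3 the highest. The Camp levels of the groups did not overlap, which held for 10.5% of all genes. Ethanol was the lower, though narrowly so for ethanol array 2 and saline array 2. Ltf encodes lactoferrin, an iron-binding protein, and lies 596.3 kilobases beyond Ngp. Its levels ran from 6.12 on ethanol array 3 to 6.47 on saline array 1, which was 0.03 above the next array. Mmp8, neutrophil collagenase, ran from 5.36 to 5.50, with ethanol array 1 the highest.

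The primary granule genes did not stand apart on saline array 1. Mpo encodes myeloperoxidase, which makes hypochlorous acid from hydrogen peroxide, and ran from 6.73 on ethanol array 3 to 7.00 on saline array 2. Elane encodes neutrophil elastase and ran from 6.45 on saline array 3 to 6.74 on saline array 1, with saline array 2 at 6.73. Saline array 1 departed from the mean of the others by 0.09 for Mpo, 0.10 for Elane and 0.08 for Mmp8. The SD of the other 5 arrays was 0.13 for Mpo, 0.11 for Elane and 0.06 for Mmp8, so saline array 1 lay within or close to their spread.

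Saline array 1 was the highest of the 6 arrays for 7 of the 10 members, where it was the highest for 21.2% of all genes. All 10 stood above the mean of the other arrays on it, where 56.8% of all genes did. It was at least 0.5 above that mean for 4 members, where this held for 0.383% of all genes, or 85. The members were chosen on this array, so these counts describe the choice and test nothing. The threshold of 0.5 fell between Ngp, at 0.55, and S100a9, at 0.27. No member stood 0.5 above the mean of the other arrays on any of the 5 other arrays, where 41 to 158 of all 22180 genes did. With so small a share of genes, none among 10 is an ordinary count. That mean also holds the high level on saline array 1 that Lcn2, S100a8 and Stfa2l1 were chosen on, so this count tests nothing either.

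**Figure D2:**
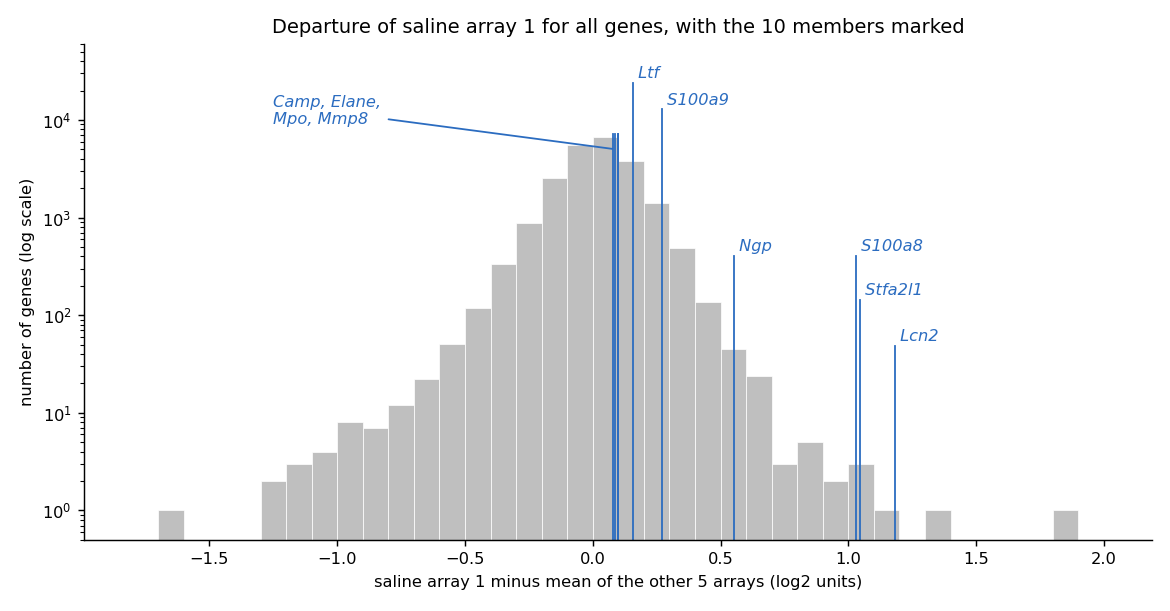
Number of genes, on a log scale, by the difference of saline array 1 from the mean of the other 5 arrays in log2 units, over 22180 genes, with vertical lines for the 10 members. Lcn2, Stfa2l1 and S100a8 lie above 1, where only 6 genes in all are found, Ngp lies at 0.55, and Camp, Elane, Mpo and Mmp8 lie between 0.08 and 0.10, within the bulk of genes.

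The genes most like Lcn2, S100a8 and Stfa2l1 over the 6 arrays were genes of other kinds. Likeness was the root mean square difference between a gene's values, centred on their own mean, and the mean centred profile of the 3 genes. The nearest was Sst, the interneuron peptide somatostatin, at a difference of 0.08 log2 units, nearer than Lcn2 itself at 0.12, since the profile averages genes that differ among themselves. Sst stood at 9.54 on saline array 1 and between 8.29 and 8.66 on the others. Next came Gh, growth hormone, at 0.11, with 7.37 on saline array 1 and 6.31 to 6.46 elsewhere. Tfap2d, a transcription factor of the AP-2 family, was at 0.16. Tcf7l2, which acts with beta-catenin in Wnt signalling, was at 0.17, with 8.47 on saline array 1 and 7.00 to 7.17 elsewhere. Ptgs2, the inducible cyclooxygenase, was at 0.18, and Npy, the peptide neuropeptide Y, at 0.18. The remaining 4 were Svs3b, Gstm2, Vmn1r14 and Trim25, at 0.19 to 0.20. Of the other members, Ngp was nearest, at 0.23 and rank 29 of all genes, whereas S100a9 was at 0.38 and rank 4675.

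Only 2 genes departed further than Lcn2 on saline array 1. They were Nrgn, the postsynaptic protein neurogranin of forebrain neurons, at 9.11 against 7.17 to 7.48 on the others, and Tcf7l2, by 1.38. The 10 highest departures among genes that are no member were those of Nrgn, Tcf7l2, Sst, Gh, Gm8300, Ptgs2, Tfap2d, Olfr1305, Svs3b and Gm6592, from 1.81 down to 0.81. Genes of neurons and a pituitary hormone therefore stood beside Lcn2, S100a8 and Stfa2l1 at the top of this array. The rankings by profile and by departure are not independent, as the profile peaks on saline array 1, and 6 genes were in both.

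**Figure D3:**
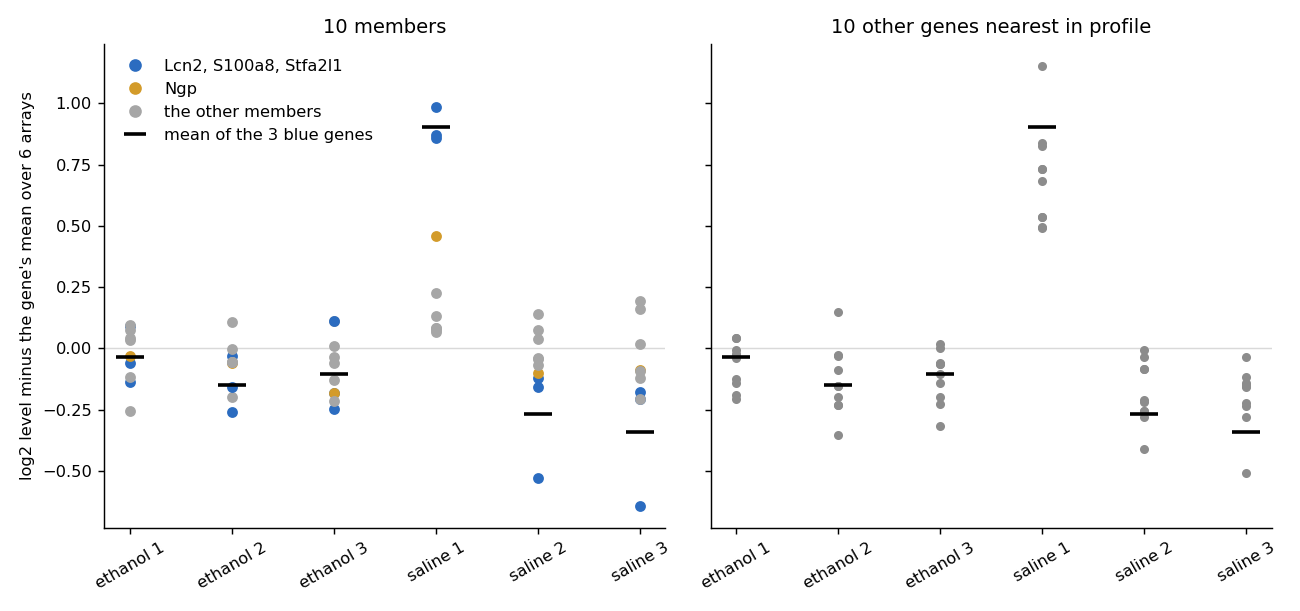
Log2 level of each gene minus its own mean over the 6 arrays, for the 10 members at the left and for the 10 other genes nearest in profile at the right; dots are genes and black dashes the mean of Lcn2, S100a8 and Stfa2l1. On saline array 1 the black dash is at 0.90 and all 10 of the other genes are above 0. They were picked for nearness to a profile that peaks there, so this follows from the choice.

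Genes next to the members on the chromosome departed less than Lcn2, S100a8, Stfa2l1 and Ngp. The nearest 2 genes with a row on each side of every member gave 36 different genes that are no member. Their departures on saline array 1 had a median of 0.02, ran from -0.15 to 0.42, and none reached 0.5. The highest was Mir142, a microRNA gene of blood cells close to Mpo, singled out after its value was seen. Mir142 stood at 6.09, 6.47 and 6.43 on the ethanol arrays and at 6.94, 6.72 and 6.84 on the saline arrays. Its groups did not overlap, which held for 10.5% of all genes. On the 5 arrays Mir142 was at -0.45 with an adjusted p of 0.464 in limma. Around S100a8 the gene S100a7a departed by 0.05 and S100a6 by 0.14, and around Stfa2l1 the stefin gene Cstdc4 departed by -0.05 and Csta3 by 0.41. Around Ngp, Kif9 departed by 0.31 and Ptpn23 by 0.24. Mir142, Csta3 and Kif9 thus departed further than S100a9 and the 5 members below it.

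Ethanol was compared with saline without saline array 1, as 3 ethanol arrays against saline arrays 2 and 3. The mean of these 5 arrays is the level from which the departure on saline array 1 was measured. Each p-value measures the spread between pools of 3 mice. No member was called: limma gave an adjusted p under 0.05 for 0 of the 10 members and for 0 of 41345 rows, or 0%. At an unadjusted p under 0.05 there were 0 members, against 5.83% of all genes and 3846 of the 41345 rows. Of the 10 members, 6 were higher and 4 lower in ethanol with a median difference of 0.0032, beside 59.5% of all genes higher and a median of 0.03. The groups did not overlap for 2 members, S100a8 and Camp, where this held for 27.3% of all genes. In simulated data of this design, limma called 1 of 50 rows changed by 0.5 and 37 of 50 rows changed by 1. The lack of a call therefore says little about differences as small as those of the members. The simulated data also held 50 rows changed by 2 and 50 changed by 3, which eases the adjusted threshold. Their counts of calls may therefore be too high for the real data.

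The widest differences were those of S100a8 and Stfa2l1. S100a8 was higher in ethanol by 0.33 ± 0.14 (log2 difference ± SE, 3 arrays against 2), with a 95% interval from -0.0083 to 0.66 and an adjusted p of 0.544 in limma. Stfa2l1 differed by 0.35 ± 0.17, with an interval from -0.08 to 0.77 and an adjusted p of 0.592 in limma. For S100a8 every ethanol array was above both saline arrays, and for Stfa2l1 saline array 2, at 3.97, lay among the ethanol arrays. S100a9 went the other way, at -0.18 ± 0.14, with an interval from -0.52 to 0.17 and an adjusted p of 0.727 in limma. The partners S100a8 and S100a9 thus pointed in opposite directions, and neither passed. The difference between them was not tested. S100a8 was the dimmer row, with a mean signal at percentile 26.5 of all rows, against 54.1 for S100a9.

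Lcn2 differed by -0.05 ± 0.08 between ethanol and the 2 other saline arrays, with an interval from -0.25 to 0.16. Ngp differed by 0.0050 ± 0.09, with an interval from -0.21 to 0.22, and Mmp8 by 0.02 ± 0.09, with an interval from -0.19 to 0.24. These 3 intervals are the narrowest of the 10. Camp differed by -0.15 ± 0.10, Elane by 0.08 ± 0.11, Mpo by -0.04 ± 0.12 and Ltf by 0.0014 ± 0.12. The adjusted p in limma ran from 0.544 for S100a8 to 0.998 for Ltf over the members.

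With all 6 arrays the differences lean on saline array 1, which led to the choice, so they are given without a test. Lcn2 had the largest difference, -0.43, with group means of 6.80 ± 0.07 in ethanol and 7.23 ± 0.67 in saline (SD, n = 3). S100a8 and Stfa2l1 turned from higher to lower in ethanol, at -0.08 and -0.07. Their saline SDs were 0.73 and 0.77, against 0.14 in ethanol for both (n = 3). Ngp was at -0.18, S100a9 at -0.23 and Camp at -0.15, the last the only member whose groups did not overlap, where this held for 10.5% of all genes. In all 9 of the 10 members were lower in ethanol, against 42.8% of all genes, and limma called 0% of rows on the 6 arrays.

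**Figure D4:**
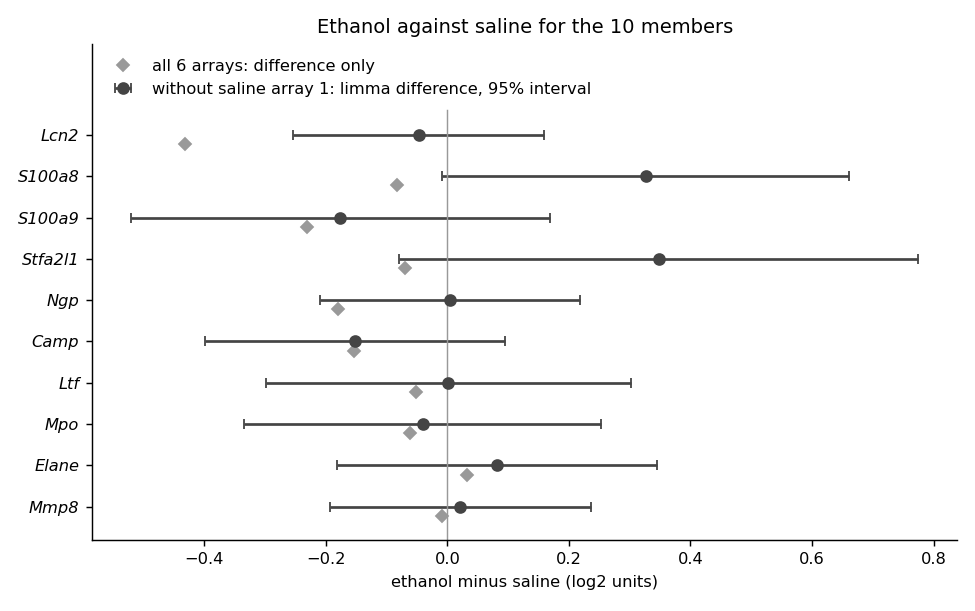
Difference of ethanol from saline in log2 units for the 10 members; dark dots with bars are the limma difference and 95% interval without saline array 1 (3 arrays against 2), and grey diamonds the difference over all 6 arrays. All 10 intervals include 0, and for S100a8 and Stfa2l1 the dot lies at 0.33 and 0.35 whereas the diamond lies at -0.08 and -0.07.

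Other genes of neutrophils were taken from lists. In every list, counts above the mean of the other arrays on saline array 1 are to be read beside 56.8% of all genes. In bulk tissue, fewer cells of a type and less RNA per cell cannot be told apart. Of 27 other neutrophil granule genes, 21 stood above the mean of the other arrays on saline array 1, with a median departure of 0.11 beside 0.02 for all genes, and 0 reached 0.5. The highest were Chil3, a chitinase-like protein, at 0.49, Lyz2, lysozyme of neutrophils and macrophages, at 0.47, and Cyba, a subunit of the NADPH oxidase, at 0.43. Chil3 stood at 6.72 on saline array 1 and between 6.05 and 6.35 on the others, and Lyz2 at 7.09 against 6.50 to 6.74. Cd177, a neutrophil antigen held in secondary granules, stood at 6.88 against 6.46 to 6.74. The log2 of the summed signal of the 27 genes was 11.528 on saline array 1 and between 11.346 and 11.405 on the others. Its part in the levels of the members was not tested. Against ethanol on the 5 arrays, 14 of the 27 were higher and 13 lower, with 0 called by limma and 0 at an unadjusted p under 0.05.

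Of 18 surface and signalling markers of neutrophils, 13 were above the mean on saline array 1, with a median of 0.06. Ly6g, the antigen by which mouse neutrophils are sorted, stood at 4.43 on saline array 1 and between 4.15 and 4.67 on the others, so it did not stand apart there. Csf3r, the receptor for granulocyte colony-stimulating factor, was lowest on saline array 1, at 6.42 against 6.45 to 6.56. Cxcr2, the chemokine receptor that draws neutrophils, stood at 7.46 against 6.99 to 7.40. Itgb2, an integrin chain of all white blood cells, was at 7.70 against 7.25 to 7.39, and Retnlg, a resistin-like peptide of neutrophils, at 4.81 against 4.40 to 4.60. Ceacam10 departed downward, by -0.38. The log2 of the summed signal of the 18 markers ran from 10.44 to 10.50 in ethanol and from 10.49 to 10.58 in saline, the highest on saline array 1. Its part in the levels of the members was not tested. Against ethanol on the 5 arrays 8 markers were higher and 10 lower, 0 called by limma, and 1 had an unadjusted p under 0.05, Mrgpra2b, a receptor of the Mas-related family, at -0.81 ± 0.14 with an adjusted p of 0.385 in limma.

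Among 12 transcription factors of the myeloid line, 8 were above the mean on saline array 1, beside 56.8% of all genes, with a median of 0.07. The highest were Runx1 at 0.34, Cebpe, which drives secondary granule genes, at 0.20, and Spi1, which encodes PU.1, at 0.19. On the stefin A list, which also holds the stefin B gene Cstb, 3 of 10 genes were above it, with a median of -0.02. Csta3 was the highest, at 0.41, and saline array 2 exceeded saline array 1 there. Stfa1 stood at -0.22 and Csta2 at 0.22. Stfa3 differed from saline by -0.51 ± 0.18 on the 5 arrays, with an adjusted p of 0.503 in limma, the opposite sign to Stfa2l1. Of 15 other S100 genes, 12 were above the mean on saline array 1, led by S100z at 0.27, S100a11 at 0.26 and S100g at 0.24.

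Of 14 genes for receptors and partners of the members, 11 were above the mean on saline array 1, with a median of 0.04. Slc22a17, a receptor for lipocalin 2, stood between 10.26 and 10.58 on all arrays. Tlr4, which calprotectin can activate, was at 6.40 on saline array 1 and between 5.90 and 6.27 on the others. Ager, the receptor for advanced glycation end products, was between 7.90 and 8.20. Ly96, the co-receptor of Tlr4, differed by 0.30 ± 0.10 in ethanol on the 5 arrays with an adjusted p of 0.480 in limma. Of 28 acute phase and reactive astrocyte genes measured, 22 were above the mean on saline array 1, beside 56.8% of all genes, with a median of 0.08. The highest were Cxcl10, an interferon-induced chemokine, at 0.42, S1pr3 at 0.36 and Saa2, a serum amyloid, at 0.31. On the 5 arrays S1pr3 was at 0.27 ± 0.10, Vim, which encodes vimentin, at 0.21 ± 0.08 and Saa3 at -0.28 ± 0.11, with adjusted p from 0.504 to 0.515 in limma.

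Markers of the other cell types that the tissue could hold were read on the same array. Of the 16 red blood cell genes on the list 6 were measured, the globin genes and Alas2 not among them, with a median departure of -0.05 and the highest at 0.02. Platelet markers had a median of -0.02 over 8 genes, with Pf4 at -0.33. Choroid plexus markers had a median of -0.13 with 2 of 14 above 0, and Kcne2 was at -0.28. Medians were 0.14 for 14 lymphocyte, 0.13 for 14 monocyte and border macrophage and 0.12 for 14 microglia markers. Klrb1c was at 0.45, H2-Aa at 0.38 and Csf1r at 0.31, and Ptprc, carried by all white blood cells, stood at 5.76 on saline array 1 and between 5.24 and 5.71 on the others. Over 14 endothelial markers the median was 0.16 with 12 above 0, led by Selp, the adhesion molecule P-selectin, at 0.43. For meningeal fibroblasts the median was 0.03, and for progenitor and division genes 0.04.

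Summed signals were highest on saline array 1 for some of these lists and within the range of the other arrays for others. On the log2 scale the lymphocyte sum ran from 10.56 to 10.64 in ethanol and from 10.61 to 10.76 in saline, and the microglia sum from 11.60 to 11.64 and from 11.58 to 11.71. The endothelial sum ran from 11.55 to 11.66 in ethanol and from 11.44 to 11.70 in saline. The monocyte and border macrophage sum ran from 10.90 to 11.12 in ethanol and from 10.96 to 11.14 in saline. Each of these sums was highest on saline array 1. The red blood cell sum ran from 10.17 to 10.30 and from 10.08 to 10.33, with saline array 1 at 10.17. Saline array 1 also lay within the range of the other arrays for the platelet sum, at 9.59 against 9.53 to 9.68, the choroid plexus sum, at 13.62 against 13.49 to 13.85, and the meningeal sum, at 13.17 against 12.89 to 13.26. Markers of regions moved too: the thalamus and habenula list had a median of 0.10, with Slc17a6, a vesicular glutamate transporter, at 0.56 and Pou4f1 at 0.24 beside Tcf7l2. The hippocampal list had a median of 0.10 and the cerebellar list of -0.03, with Eomes at -0.48. The part of these cell types and regions in the levels of the members was not tested.

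Over the 19 lists 269 different genes were measured. On the 5 arrays limma called 0 of them, and 13 genes, or 4.83%, had an unadjusted p under 0.05, against 5.83% of all genes.

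**Figure D5:**
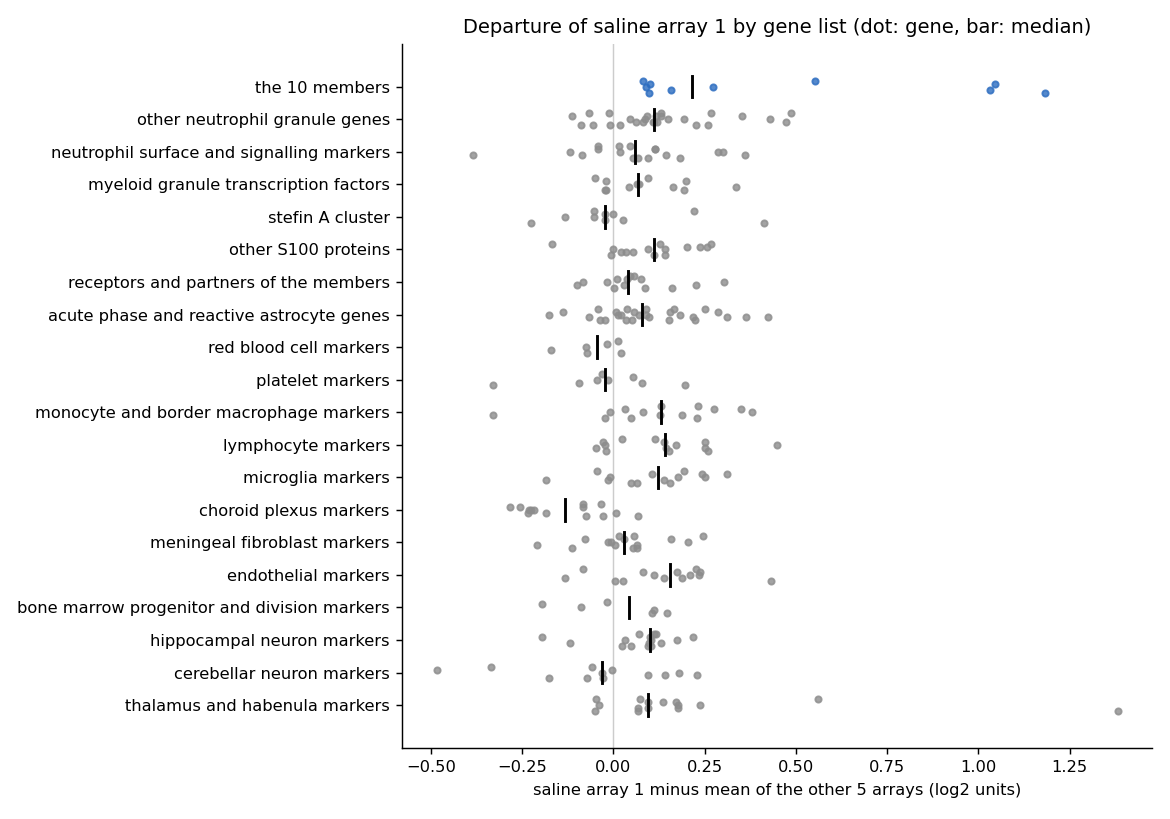
Difference of saline array 1 from the mean of the other 5 arrays in log2 units for the 10 members and for the measured genes of 19 lists; each dot is a gene and each black bar the median. The members have a median of 0.22, which includes the 3 genes that prompted the choice, and the list medians run from -0.13 for choroid plexus to 0.16 for endothelial markers; without those 3 genes the median of the other 7 members is 0.10, within the range of the lists.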

How the data were processed

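RNA of 6 pools of 3 mice was measured on Affymetrix whole-transcript arrays, 3 for ethanol and 3 for saline. The deposited values are log2 expression levels of 41345 probe rows; the submitters' processing notes name only the build mm10, and the normalization is not given in the sources used here. Values were used as deposited, and precision is limited by how many arrays there are. A row was named only where its annotation gave exactly 1 gene (23521 rows, 22180 genes), and the row with the highest mean over the 6 arrays stood for a gene. The 10 members and the 19 lists were chosen with earlier results of these data known. Since saline array 1 led to the choice, its departure (its level minus the mean of the other 5 arrays) is a description. Ethanol was tested against saline on the other 5 arrays with limma 3.58.1 in R 4.3.3 (lmFit, eBayes, adjusted by Benjamini-Hochberg over all 41345 rows, threshold 0.05), after the script was tested on simulated data. Genes named are all members, up to 3 genes per list by absolute departure and up to 3 by unadjusted p under 0.05, the markers Ly6g, Csf3r, Cxcr2, Cd177, Ptprc, Alas2, Hba-a1, Hbb-bs and Hbb-bt, the receptors Slc22a17, Tlr4 and Ager, Tcf7l2, and the 10 other genes nearest in profile or highest in departure. Alternatives were other centring and scaling, array weights, a brightness filter, a replicate block and leaving out each array. Promoter sequences are from RefSeq, GRCm38.p6, and all 10 members matched.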

Additional observations from a re-analysis of the deposited data

How the results depend on the processing

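No member was called in any alternative run on the 5 arrays, and no gene of the lists either. Leaving out single arrays gave 0 to 1 rows called on the 5 arrays and 0 to 1 on all 6; the 1 row was called without saline replicate 2 on the 5 arrays and without saline replicate 3 on all 6. Deviations of same-numbered arrays correlated at 0.10, -0.06 and 0.04 for replicates 1, 2 and 3, and the labels tie no number to a litter, so the numbers were not taken as pairs. With the replicate number as a block, 0 rows were called on either set of arrays, and the 5-array differences of Ngp, Ltf and Mmp8 turned to -0.025, -0.028 and -0.019. Ltf was at -0.00060 with array weights, and Mpo at 0.0028 with each array centred on its median. Leaving out each array, the differences ran from -0.025 to 0.051 for Ngp, -0.064 to 0.096 for Ltf, -0.17 to 0.090 for Mpo, -0.060 to 0.22 for Elane and -0.021 to 0.064 for Mmp8, from 0.16 to 0.49 for S100a8, 0.09 to 0.61 for Stfa2l1, -0.29 to -0.08 for S100a9, -0.27 to -0.03 for Camp and -0.086 to -0.024 for Lcn2. The cause was not tested. The lowest unadjusted p in limma was 0.0191 for S100a8, without saline replicate 3, and 0.00821 for Stfa2l1 and 0.0438 for Camp, both without saline replicate 2, with adjusted p of 0.399, 0.413 and 0.552. The median departure over the members was 0.22, was 0.047 when taken against the highest other array, and ran from 0.16 to 0.24 in the other settings, some of which were chosen after seeing the data. A filter that kept rows above the median brightness left 4 of the 10 members, Lcn2, S100a9, Mpo and Elane. S100a8, Stfa2l1 and Ngp were among the members it dropped. With 3 arrays against 2, a difference of the size seen for S100a8 did not pass the threshold.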
